A study of Mus musculus with 2 samples.

Results

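Macrophages that carry Lyve1, Folr2 and Fcna were examined in 2 single-cell RNA libraries from mouse pancreatic tumours. A cell was kept with at least 500 detected genes, 1000 to 60000 unique molecular identifiers (UMIs, each standing for 1 captured RNA molecule) and at most 15% mitochondrial UMIs. It was called a macrophage with at least 10 UMIs of C1qa, C1qb and C1qc that made up at least 0.2% of its UMIs, and with fewer than 10 UMIs of the keratins Krt8 and Krt18. It was a member of the subset with at least 3 UMIs of Lyve1, Folr2 and Fcna in sum. These rules gave 675 members among 3337 macrophages, 24160 kept cells and 25865 barcodes. The other 2662 macrophages served for comparison. The levels of Lyve1, Folr2 and Fcna chose the members, so the contrast of members with other macrophages is a description and was not tested.

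Each tumour was an orthotopic allograft, grown in the pancreas of a mouse from injected KPC cells, which come from a mouse model of pancreatic cancer. The cells of the KPC-shV group carried a control hairpin and those of the KPC-shZEB1 group a hairpin that targets Zeb1. Per the study's methods the hosts were a few weeks old, and its results describe gemcitabine treatment of the mice in this experiment, which the labels do not mention. The study's results describe the mice of this experiment as immunocompetent. The methods list several host strains, and which of them carried these 2 tumours was not given in the sources used here. Also, the hairpins act in the injected cells and not in the host's macrophages. Whole tumour tissue was dissociated with collagenase and trypsin with 1 tumour per group, and no sort is described. Mouse, tumour, dissociation, library and group therefore cannot be told apart. No value has a replicate, no test between the groups was possible, and all intervals are exact 95% intervals that cover counting error only.

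The KPC-shV-labelled library held 277 members with 3622072 UMIs, and the KPC-shZEB1-labelled library held 398 members with 5461138 UMIs. The median member had 12027 and 12327 UMIs, against 14956 and 15578 in other macrophages, and the median mitochondrial share was 2.31% and 2.11%. Both libraries shared 46 barcodes, none of them between members. Zeb1 went against the labels. Its level in tumour cells, taken as cells with at least 10 keratin UMIs and less than 0.2% C1q UMIs, was 171 CPM (UMIs of a gene per 1000000 UMIs of the class) in the KPC-shV-labelled library and 203 CPM in the KPC-shZEB1-labelled library, a ratio of 1.19 (interval 1.15 to 1.23). For this reason the libraries are called by their labels throughout. Where 2 values follow each other without a library named, the KPC-shV-labelled library comes first.

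Lyve1 encodes a receptor for hyaluronan, Folr2 the beta folate receptor, and Fcna ficolin A, a secreted lectin that can start the complement cascade. In many mouse organs these genes mark macrophages that sit along vessels and in connective tissue, carry little MHC class II and are maintained locally to a larger degree than the macrophages that arise from blood monocytes. MHC class II molecules display peptides to CD4 T cells. Lyve1 is also known from lymphatic endothelium, and Timd4 and Gata6 from macrophages of the peritoneal cavity, so markers of both were examined.

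On the mouse genome build GRCm38, to which mm10 corresponds, the GENCODE annotation places Lyve1 on chromosome 7 from 110850607 to 110863239 and Folr2 on chromosome 7 from 101839988 to 101857194, both on the minus strand. Fcna lies on chromosome 2 from 25624666 to 25628030 on the minus strand. F13a1 lies on chromosome 13 from 36867178 to 37050244 on the minus strand, and the plus strand carries Ccl8 (chromosome 11, 82115185 to 82116799) and Bmp2 (chromosome 2, 133552159 to 133562885).

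The RefSeq promoter table (GRCm38.p6) held 6 windows for 4 of the 6 marker genes: Fcna, Folr2, F13a1 and Ccl8. The 250 bases before each start were searched on both strands for AGGAAGT, a core bound by ETS factors such as PU.1, and for TGCTGAC, a half-site of MAF factors. Both motifs were chosen after the windows had been read. AGGAAGT occurred in 3 of the 6 windows and in 7.69% of all 32851 promoters, and TGCTGAC occurred in 1 of the 6 and in 3.81% of all promoters. The windows of Fcna and of the outer Folr2 start are shown because these are rule genes with a match, with matches in capitals and both sequences on the minus strand. A match is a run of letters and not a measured binding site.
Fcna chr2:25627975-25628224: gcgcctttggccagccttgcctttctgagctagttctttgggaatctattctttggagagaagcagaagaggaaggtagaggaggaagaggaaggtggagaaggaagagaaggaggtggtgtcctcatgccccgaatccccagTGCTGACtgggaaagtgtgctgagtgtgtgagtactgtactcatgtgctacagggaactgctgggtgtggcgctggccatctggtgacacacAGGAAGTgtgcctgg
Folr2 chr7:101857191-101857440: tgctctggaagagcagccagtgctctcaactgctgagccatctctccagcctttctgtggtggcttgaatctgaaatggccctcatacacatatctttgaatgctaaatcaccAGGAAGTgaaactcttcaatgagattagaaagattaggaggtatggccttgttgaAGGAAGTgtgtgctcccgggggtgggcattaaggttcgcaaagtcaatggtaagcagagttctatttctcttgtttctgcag

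UMI counts of the rule genes ran across the cut without a gap. Counts this low do not show whether the members are a graded or a separate part of the macrophages. In the KPC-shV-labelled library, 685 of 1194 macrophages had no UMI of the 3 genes, 159 had 1, 73 had 2, 35 had 3 and 128 had 10 or more. In the KPC-shZEB1-labelled library, 1190 of 2143 had none, 427 had 1, 128 had 2, 65 had 3 and 176 had 10 or more. The median member carried 8 UMIs of the rule genes in each library. All 3 genes were seen in 52.3% and 52.8% of members, 2 of them in 37.2% and 37.9%, and 1 in 10.5% and 9.3%.

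**Figure D1:**
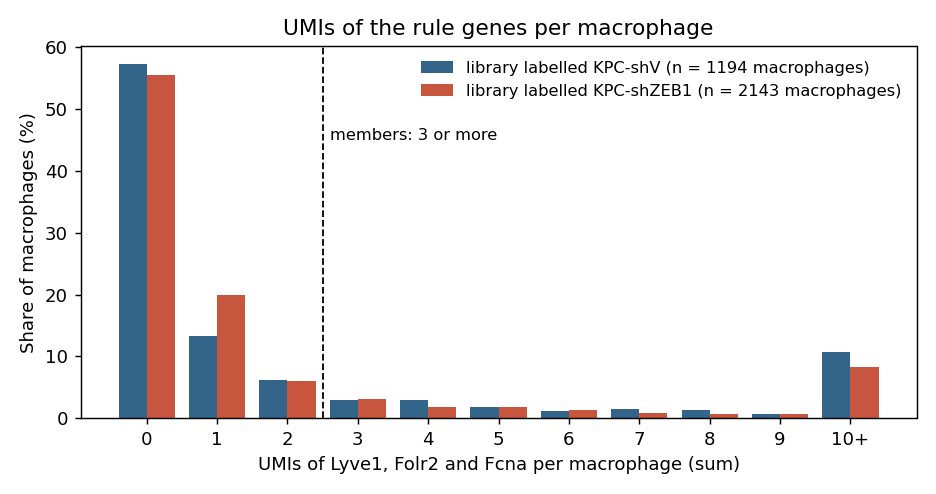
Share of macrophages (y axis, percent) by the summed UMIs of Lyve1, Folr2 and Fcna per cell (x axis), with 1 bar per library. The dashed line marks the cut at 3 UMIs, below which 73 and 128 macrophages had 2 UMIs and above which 35 and 65 had 3.

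Free RNA in the droplets reached the cut in almost no cell of a type that should lack the genes. At 3 UMIs, 0 of 403 T cells in the KPC-shV-labelled library and 0 of 1053 in the KPC-shZEB1-labelled library would have passed, which allows shares of up to 0.911% and 0.35% by the exact interval. At 1 UMI the shares were 5.96% and 9.02% of T cells, at median depths of 6151 and 5350 UMIs. Among B cells 1 of 257 and 0 of 898 reached 3 UMIs. Endothelial cells passed more often, at 5 of 268 and 4 of 143 cells. Since members had a median depth of 12027 and 12327 UMIs, a single UMI in a macrophage was not read as expression.

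Of the 3 markers that the rule did not use, F13a1, the A subunit of coagulation factor XIII, was at 1592 CPM in members and 155 CPM in other macrophages of the KPC-shV-labelled library. In the KPC-shZEB1-labelled library it was at 1773 against 184 CPM. The ratios were 10.3 (9.76 to 10.8) and 9.66 (9.33 to 9.99), so both libraries gave nearly the same contrast. Bmp2, a bone morphogenetic protein, was at 775 against 57.7 CPM and at 707 against 45.7 CPM. Ccl8, a chemokine, was at 2311 against 793 CPM and at 2879 against 735 CPM. Ccl8 was thus the least specific of the 3, and 73.8% and 81.2% of other macrophages held at least 1 of its UMIs. All of F13a1, Ccl8 and Bmp2 were seen in 63.5% and 68.1% of members and in 12.3% and 11.9% of other macrophages.

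C1qa, a gene of the macrophage rule whose level that rule helps to fix, was at 3062 CPM in members and 2775 CPM in others of the KPC-shV-labelled library, and at 4095 against 3614 CPM in the KPC-shZEB1-labelled library. Csf1r, the receptor for macrophage colony-stimulating factor, was at 453 and 520 CPM in members. Adgre1, which encodes F4/80, was at 375 and 366 CPM in members and 224 and 176 CPM in others. Of the lymphatic endothelial markers, Prox1 was at 4.14 and 0.549 CPM in members, and 1 member of the KPC-shV-labelled library held at least 3 UMIs of Prox1 and 3 further lymphatic genes while none of the KPC-shZEB1-labelled library did. The lymphatic sum of 236 and 262 CPM was mostly Pdpn (208 and 260 CPM), which was higher in other macrophages (345 and 470 CPM). Gata6, the factor that marks large peritoneal macrophages, was at 6.63 and 1.83 CPM in members. In the KPC-shV-labelled library it was higher in members than in others, with log2 ratios from 0.78 to 1.65 over the alternatives. In the KPC-shZEB1-labelled library these ran from -0.23 to 0.52.

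Levels of F13a1 and H2-Ab1 changed step by step with the number of rule UMIs, on both sides of the cut. In the KPC-shV-labelled library, F13a1 was at 98.6 CPM in cells with no rule UMI, 262 with 1, 454 with 2, 814 with 3 to 5, 1630.2 with 6 to 9 and 2056 with 10 or more. In the KPC-shZEB1-labelled library the same bins gave 124, 227, 581, 1049, 1609 and 2397 CPM. H2-Ab1, the beta chain of the MHC class II molecule I-A, ran the other way, from 2583 through 2040.3, 1537, 928 and 739 to 233 CPM. In the KPC-shZEB1-labelled library H2-Ab1 ran from 3761 through 3271, 2444, 1681 and 1568 to 797 CPM. Summed over cells, the bin just inside the cut therefore lay between the 2 ends for both genes. Such sums do not show whether single cells were intermediate or 2 kinds of cell were mixed. C1qa had no such slope, at 2712 CPM with none and 2895 CPM with 10 or more rule UMIs in the KPC-shV-labelled library, and at 3558 and 4198 CPM in the other. Nor did every marker rise evenly. With 3 to 5, 6 to 9 and 10 or more rule UMIs, Ccl8 was at 1901, 3476 and 2149 CPM in the KPC-shV-labelled library. In the KPC-shZEB1-labelled library Ccl8 rose through 2254 and 3078 to 3295 CPM. Pf4 was at 1632, 1876 and 1350 CPM and at 1392, 1044 and 1086 CPM in the same bins. These are levels along a measured quantity and no more than a description.

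**Figure D2:**
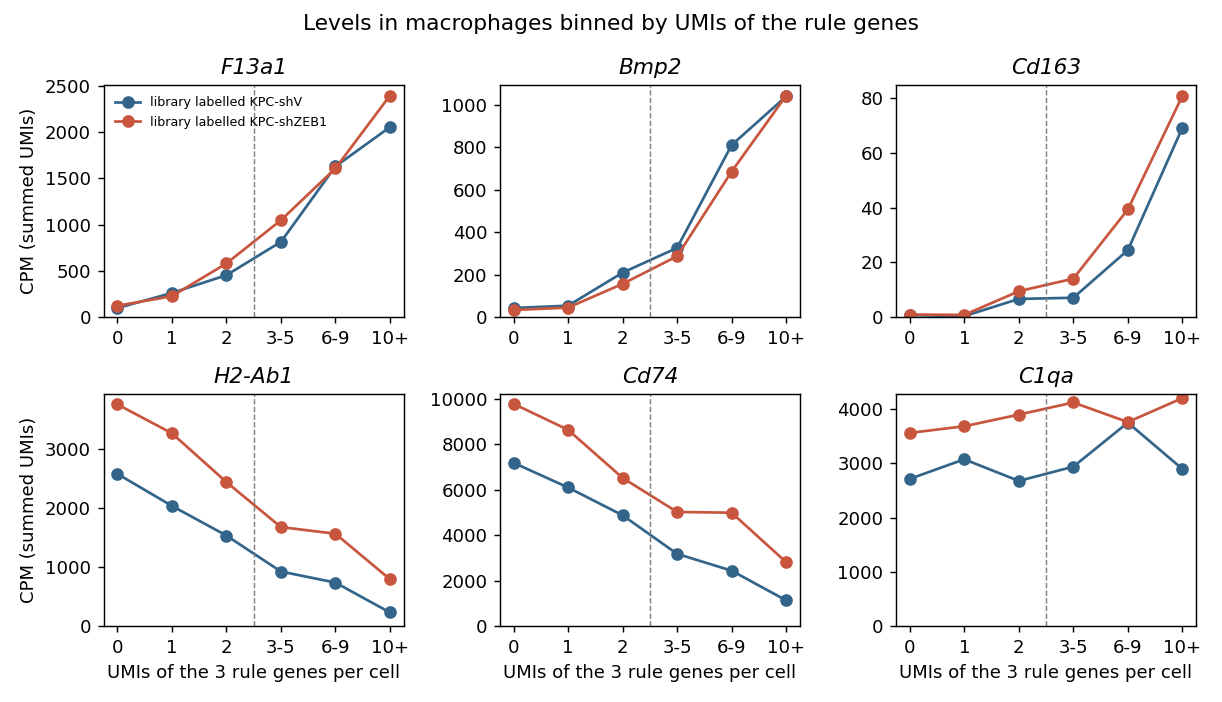
CPM from summed UMIs (y axis) of F13a1, Bmp2, Cd163, H2-Ab1, Cd74 and C1qa in macrophages binned by their UMIs of the rule genes (x axis), with 1 line per library and the cut as a dashed line. F13a1 goes from 98.6 to 2056 CPM and H2-Ab1 from 2583 to 233 CPM in the KPC-shV-labelled library, while C1qa stays between 2675 and 3748 CPM.

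Members differed from other macrophages by at least 2-fold in the same direction in both libraries at 283 genes that were higher (2.37% of 11965 genes with at least 30 UMIs over all macrophages in each library) and 238 that were lower (1.99%). At 1.5-fold, 725 genes (6.06%) were higher and 664 (5.55%) were lower. These shares are the background for the gene lists below. Fold changes are log2 ratios of CPM with 1 CPM added, which understates the difference of low genes. Medians over all genes were 0.00 and -0.04. The members and the gene lists were chosen with the subset's profile known, so the counts describe these cells and carry no test.

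Genes of resident macrophages formed the clearest group. Of 17 listed genes that passed the minimum, 16 were at least 1.5-fold higher in members of both libraries, with median log2 ratios of 1.85 and 1.77. Gas6, a bridging protein between dying cells and the receptors Mertk and Axl, was at 342 against 39.2 CPM and at 267 against 35.2 CPM. Selenop, the plasma carrier of selenium, was at 1679 against 450 CPM and at 1662 against 384 CPM. Both genes were seen broadly, Gas6 in 85.9% and 84.2% of members. Cbr2, a carbonyl reductase, was at 161 against 5.58 CPM and at 154 against 9.34 CPM. Mrc1, the mannose receptor, was high in all macrophages and reached 1931 against 835 CPM and 1972 against 803 CPM. Cd302 was the listed gene that stayed under 1.5-fold, with log2 ratios of 0.31 and 0.22.

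Beside the rule genes themselves, the 15 genes with the largest difference shared by both libraries included Cd163, Vsig4, Marco, Ednrb, Cd5l, Matn4, Retnla, Chp2 and Serpinb8. Ednrb, the endothelin B receptor, was at 230 against 16.3 CPM and at 184 against 10.6 CPM. It was seen in 57% and 60.8% of members. Several others came from few cells. Cd163, the scavenger receptor for haemoglobin bound to haptoglobin, had a UMI in 27 of 277 and 69 of 398 members, and in 12 of 917 and 32 of 1745 others. Vsig4, a complement receptor, had a UMI in 21 and 41 members, and 1 cell held 45.6% of its UMIs in the KPC-shV-labelled library. Retnla, a secreted resistin-like protein, was seen in 27 and 38 members, with 39.8% and 28.2% of its UMIs in 1 cell each. At least 1 UMI of any of Cd163, Vsig4, Marco, Cd5l, Timd4 and Retnla was held by 36.5% and 40.2% of members. The same share of other macrophages was not computed. Taken singly, the most frequent of these genes in others were Marco (3.38%) in the KPC-shV-labelled library and Retnla (3.32%) in the other.

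These rarer genes overlapped in part. Marco, a scavenger receptor for bacteria and particles, and Cd5l, a secreted protein of tissue macrophages, shared 11 members of the KPC-shV-labelled library, which was 34.4% of its Marco cells and 42.3% of its Cd5l cells. In the KPC-shZEB1-labelled library they shared 6 members, 18.2% and 20.7%. Timd4, a receptor for phosphatidylserine on dying cells, was seen in 15 and 11 members only. At this depth most members gave no UMI of these genes whether or not they carry some of the RNA. Members with Cd163 had 245 CPM of H2-Ab1 against 576 CPM in those without in the KPC-shV-labelled library, and 901 against 1324 CPM in the other. For Marco the same contrast was 259 against 582 CPM and 1234 against 1250 CPM, so it was seen in the KPC-shV-labelled library only.

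**Figure D3:**
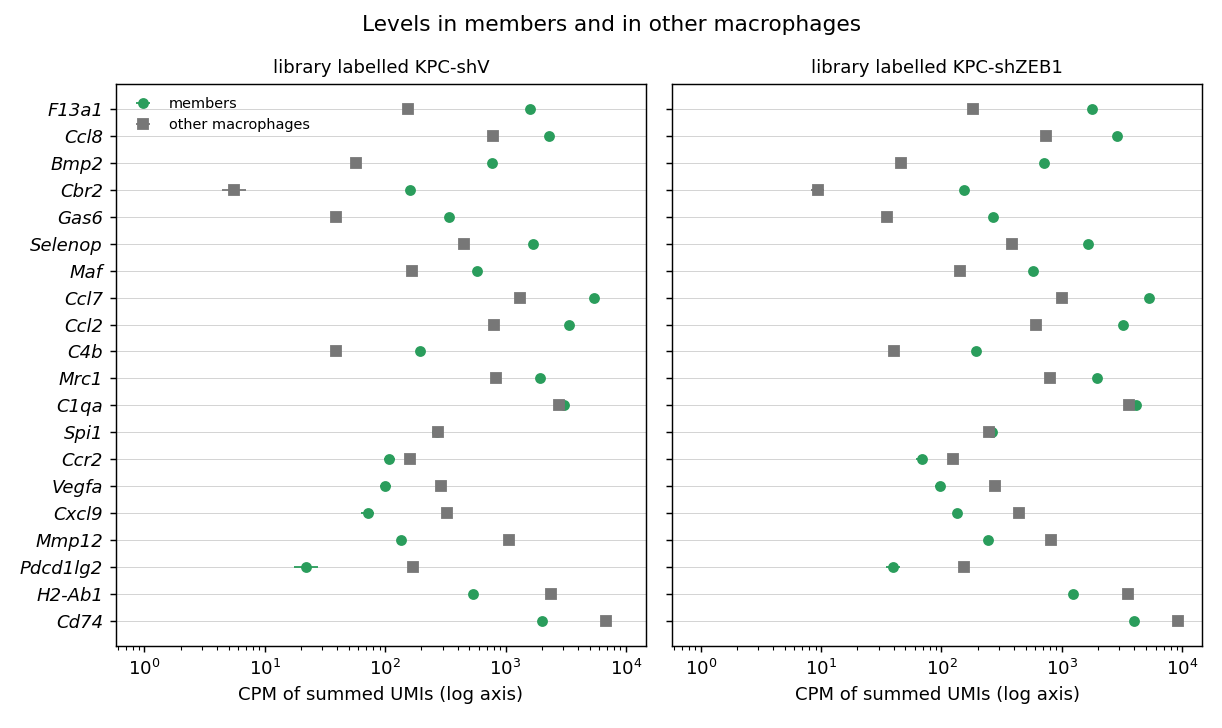
CPM from summed UMIs (x axis, log scale) of 20 genes in members (circles) and other macrophages (squares), with 1 panel per library and exact 95% Poisson intervals as bars. F13a1, Bmp2, Gas6 and Maf lie to the right in members and Mmp12, Pdcd1lg2, H2-Ab1 and Cd74 to the left, in both panels, while C1qa and Spi1 nearly coincide.

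Of 16 scavenger and lectin receptors, 9 were at least 1.5-fold higher in both libraries and none was lower, with medians of 0.90 and 1.05. Stab1, which takes up modified lipoproteins and matrix fragments, was at 371 against 120 CPM and at 302 against 116 CPM. Clec10a, a lectin for galactose residues, was at 226 against 43.5 CPM and at 326 against 51.5 CPM. The list was not uniform. Msr1, scavenger receptor A, gave log2 ratios of -0.02 and -0.08, and Clec4n, dectin-2, gave -0.78 and -0.43. In the efferocytosis list, 5 of 11 genes were higher and 2 lower. Axl was lower (108 against 237 CPM and 89.7 against 193 CPM), while Mertk was at 621 against 464 CPM and at 753 against 411 CPM. The related receptors thus lay on opposite sides, with their ligand Gas6 higher.

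Complement genes were higher at 5 of 14 and lower at none. C4b was at 195 against 39.4 CPM and at 192 against 40.7 CPM. The receptors C5ar1, C5ar2 and Vsig4 were among the higher genes. C3, the central component, gave log2 ratios of -0.35 and -0.44.

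Chemokine genes split into a higher and a lower set. Of 20, 11 were at least 1.5-fold higher in members of both libraries and 7 were lower. The higher set included the monocyte-attracting chemokines Ccl7 and Ccl2. Ccl7 was at 5430 against 1323 CPM and at 5273 against 1002 CPM. Ccl2 was at 3397 against 801 CPM and at 3213 against 612 CPM. Ccl4, Ccl3, Ccl9, Ccl12, Ccl6, Pf4, Cxcl1, Ccl8 and Cxcl13 were the others, and Cxcl13 was seen in under 5% of members. In the lower set, Cxcl9, a ligand of Cxcr3 on T cells, was at 71.5 against 328 CPM and at 135 against 444 CPM. Ccl5 was at 93.3 against 190 CPM and at 153 against 383 CPM. Ccl22, Ccl24, Cxcl3, Cxcl14 and Cxcl16 were also lower, and Cxcl10 gave log2 ratios of 0.13 and -0.45, on both sides of 0.

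MHC class II genes were lower at 8 of 9, with median log2 ratios of -1.76 and -1.25. H2-Ab1 was at 541 against 2405 CPM in the KPC-shV-labelled library and at 1248 against 3539 CPM in the KPC-shZEB1-labelled library. Cd74, the invariant chain, was at 2012 against 6820 CPM and at 3990 against 9257 CPM. The ninth gene, the protease Ctss, was also lower in both (log2 ratios of -0.74 and -0.55), past 1.5-fold in 1 library. MHC class I genes were nearer to equal, with 1 of 13 lower and medians of -0.30 and -0.19. H2-K1 was at 2003 against 1964 CPM and at 2034 against 1924 CPM.

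Among genes linked to T cell checkpoints and costimulation, which include receptors and enzymes beside ligands, 3 of 18 were higher and 5 lower. Pdcd1lg2, which encodes the checkpoint ligand PD-L2, was at 22.1 against 170 CPM and at 39.6 against 155 CPM. Cd274, which encodes PD-L1, was at 318 against 619 CPM and at 305 against 579 CPM. Cd80, Havcr2 and Nt5e were lower as well. Cd86 stayed level at 1173 against 1200 CPM and 1381 against 1238 CPM. The 3 higher genes were Vsig4, Vsir and Tgfbr2.

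Growth factors lay on both sides, with 5 of 19 higher and 4 lower. Bmp2 was the largest, and Il10, an anti-inflammatory cytokine, was at 426 against 98.2 CPM and at 284 against 85.7 CPM. Igf1, Hbegf and Pdgfc were higher too. Vegfa, the vascular growth factor, was at 100.2 against 293 CPM and at 97.2 against 279 CPM. Hgf, Pdgfa and Tnfsf13b were lower too. In the hypoxia list 4 of 13 genes were lower and 1 higher, Vegfa and the glucose transporter Slc2a1 (68.5 against 180 CPM and 59.5 against 186 CPM) most of all. The higher one, Adm, was seen in few cells, and 66.7% of its UMIs in members of the KPC-shV-labelled library came from 1 cell.

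Matrix genes were higher at 3 of 20 and lower at 7. The higher ones were F13a1, Timp2 (614 against 199 CPM and 503 against 185 CPM) and Ecm1. The lower ones included the proteases Mmp12 (136 against 1064 CPM and 245 against 816 CPM), Mmp13, Mmp14 and Mmp19. The list of lipid and matrix genes of tumour macrophages was lower at 6 of 16 and higher at none. Fabp5, a fatty acid carrier, was at 391 against 1098 CPM and at 686 against 1048 CPM. Arg1, arginase, was at 698 against 579 CPM and 732 against 706 CPM, and in the KPC-shZEB1-labelled library its log2 ratio ran from -0.84 to 0.28 over the alternatives, on both sides of 0. There it was at 647 CPM with no rule UMI and 452 CPM with 10 or more. Spp1, osteopontin, was at 989 against 1537 CPM and at 1509 against 1272 CPM, and in the KPC-shZEB1-labelled library a single member held 38.8% of its UMIs. Without the highest cell of each class the Spp1 log2 ratios were -0.65 and -0.36.

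Of 21 transcription factors, 6 were higher in both libraries and 3 lower. Maf, a factor of resident macrophages, was at 583 against 168 CPM and at 577 against 143 CPM. It was seen in 96.8% and 97.2% of members. Klf2, Tcf4, Id3, Nr4a1 and Rxra were higher by less. Runx3 was at 48 against 173 CPM and at 63.9 against 181 CPM, with Bhlhe40 and Irf8 lower by less. Spi1, which encodes PU.1, was level at 272 against 276 CPM and 262 against 251 CPM.

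Genes induced by interferons split into a higher and a lower set in members against other macrophages. Of 19, 5 were higher and 4 lower. The higher ones were Oasl1 (359 against 47.7 CPM and 362 against 89.3 CPM), Rsad2, Ifit1, Ifit2 and Ifit3, which are known from responses to type I interferon. The lower ones included Cxcl9, Gbp5 and Socs1. Among cytokines, Tnf was at 531 against 212 CPM and at 577 against 239 CPM, while Il1b was at 2511 against 4507 CPM and at 2213 against 4439 CPM. Nos2 was lower too, but few members held it and 1 cell carried 51% and 40.2% of its UMIs in each library.

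Genes that respond to dissociation and heat moved with the subset. Of 17, 8 were at least 1.5-fold higher and none lower, with medians of 0.48 and 0.31. Egr1 was at 1401 against 521 CPM and at 1173 against 410 CPM. Hspa1a was at 262 against 127 CPM and at 218 against 108 CPM. Chemokine and Tnf levels stood beside these, and the part of the dissociation response in them was not tested. Fos, of the same list, gave log2 ratios of 0.48 and 0.20 and Fosb -0.34 and -0.55.

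The 10 genes with the largest shared decrease were H2-M2, Qpct, Adamdec1, Ocstamp, Plet1, Gm6209, Dcstamp, Klrb1b, Procr and Ass1. Dcstamp, a membrane protein of cell fusion, was at 23.5 against 343 CPM and at 82 against 389 CPM. Plet1 was at 7.45 against 216 CPM and at 39.4 against 215 CPM. Both were broadly present in other macrophages.

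**Figure D4:**
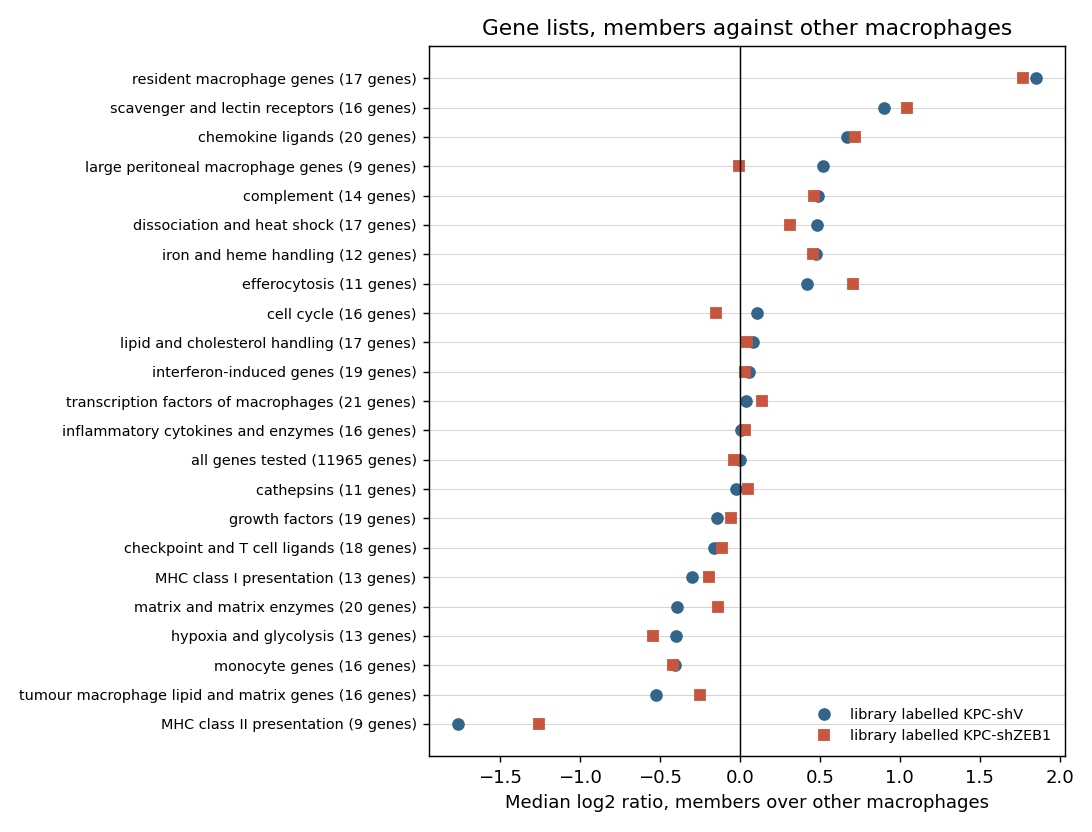
Median log2 ratio of members over other macrophages (x axis) for each gene list (y axis, with the number of genes that passed the minimum), with 1 symbol per library. Resident macrophage genes lie at 1.85 and 1.77 and MHC class II genes at -1.76 and -1.25, and all genes tested lie at 0.00 and -0.04.

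Clustering of all macrophages without the 6 marker genes among the variable genes gave 12 clusters. One cluster of 457 cells was 80.5% members and took in 49.8% and 57.8% of the members of the 2 libraries. Its leading genes included Lyve1, Fcna, Marco, Bmp2, Ednrb, Cbr2 and Folr2, and also Ins2 and Iapp, of which 1 member held 94.1% and 96.7% of the UMIs in members. In it F13a1 was at 2078 and 2383 CPM and H2-Ab1 at 310 and 862 CPM. A second cluster of 602 cells, led by Fcrls and Ccl8 among others, was 22.8% members and held 25.3% and 16.8% of them. Its F13a1 was lower, at 716 and 689 CPM, and its H2-Ab1 higher, at 1543 and 2745 CPM. The largest cluster, 779 cells led by Ccl17, Plet1, Adamdec1 and Dcstamp, was 2.05% members.

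Smaller parts of the members lay in clusters led by genes of other states or cells. A cluster led by cell division genes held 7.94% and 3.77% of members, and a cluster led by S100a9 and S100a8, genes of neutrophils, held 7.58% and 4.27%. Both were below the share of the second cluster. By marker sums, 24 and 11 members also met a neutrophil rule, 2 and 7 a T cell rule, 0 and 3 a B cell rule and 2 and 4 an endothelial rule, and 11 and 10 members had a doublet score above 0.2. The neutrophil rule was met by 8.66% and 2.76% of members and by 11.8% and 3.78% of other macrophages. For T cells the shares were 0.722% and 1.76% against 0.109% and 1.78%, for B cells 0% and 0.754% against 0.109% and 1.32%. The endothelial rule gave 0.722% and 1.01% against 1.96% and 1.95%, and the doublet score 3.97% and 2.51% against 3.16% and 3.27%. S100a8 was at 428 and 165 CPM in members and 379 and 171 CPM in others. With C1q at 5 UMIs and 0.1% its log2 ratio of members over others in the KPC-shZEB1-labelled library was -1.14. Its part in any difference between the libraries was not tested.

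Between the libraries, members were 23.2% of macrophages (277 of 1194, interval 20.8 to 25.7) in the KPC-shV-labelled library and 18.6% (398 of 2143, 16.9 to 20.3) in the KPC-shZEB1-labelled library. The ratio was 0.801 (0.685 to 0.937). As a share of all kept cells the direction turned, with 2.36% (2.1 to 2.66) and 3.2% (2.9 to 3.52), a ratio of 1.35 (1.16 to 1.58). Macrophages as a whole were 10.2% and 17.2% of kept cells, a ratio of 1.69 (1.57 to 1.81), and macrophages outside the subset had a ratio of 1.79 (1.65 to 1.94). Members were thus more frequent among all cells and less frequent among macrophages. Among kept cells other than neutrophils they were 3.91% and 3.87%, a ratio of 0.992 (0.849 to 1.16), a denominator chosen after the data were seen. Shares of 1 tumour each have no error between tumours, and fewer cells of other types would raise them in the same way as more members.

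Within members, 175 of 9607 genes with at least 50 UMIs (1.82%) were at least 2-fold higher in the KPC-shZEB1-labelled library and 38 (0.396%) were lower. At 1.5-fold, 514 genes (5.35%) were higher and 336 (3.5%) lower, with a median over all genes of -0.01. Subset genes were mostly level. Of 19 resident macrophage genes, 3 were higher and 1 lower, with a median of -0.02. Lyve1 was at 314 and 297 CPM, Folr2 at 331 and 285 CPM and Fcna at 403 and 447 CPM, which the rule itself helps to fix. F13a1, which the rule did not use, had a log2 ratio of 0.16, Bmp2 of -0.13, Maf of -0.02 and Selenop of -0.02.

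MHC class II genes were higher at 8 of 9 in members of the KPC-shZEB1-labelled library, with a median log2 ratio of 0.84 against 0.43 for the same genes in other macrophages. The rise was thus not particular to members. Over all kept cells that were not macrophages, summed as 1 class, the median for these genes was 1.22. That class held 4622 and 2174 neutrophils and 257 and 898 B cells, so its make-up differed between the libraries. The value is therefore not a rise per cell, and the part of cell make-up in it was not tested. H2-Ab1 was at 541 and 1248 CPM in members, a ratio of 2.31 (2.19 to 2.43), and at 2405 and 3539 CPM in other macrophages, a ratio of 1.47 (1.45 to 1.49). Cd74 had ratios of 1.98 (1.93 to 2.04) and 1.36 (1.35 to 1.37), and H2-Aa 1.83 (1.75 to 1.90) and 1.15 (1.14 to 1.17). The ratios of members lay above those of other macrophages beyond counting error for these 3 genes, which says nothing of other tumours. Ciita, the activator of class II transcription, had a ratio of 2.48 (1.69 to 3.73) from 34 and 127 UMIs. Cells with 10 or more rule UMIs went from 233 to 797 CPM of H2-Ab1, so the difference was present at the far end of the subset.

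UMIs of MHC class II genes in neutrophils, a cell type with little of this RNA, were also more frequent in the KPC-shZEB1-labelled library. Neutrophils, chosen by at least 0.5% of UMIs in S100a8 and S100a9, held on average 0.543 UMIs of H2-Ab1 per cell in the KPC-shV-labelled library and 1.34 in the KPC-shZEB1-labelled library. Members held 7.08 and 17.1 UMIs per cell, and other macrophages 36.7 and 56. The part of free RNA in the difference between the libraries was not tested. For Cd74 the values were 1.36 and 3.26 UMIs per neutrophil and 26.3 and 54.8 per member.

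Interferon-induced genes were higher at 8 of 19 and lower at none, with a median of 0.50 in members and 0.43 in other macrophages. Gbp5, a guanylate-binding protein induced by interferon gamma, had a ratio of 2.23 (1.75 to 2.87) in members and 2.52 (2.29 to 2.77) in others. Gbp2 had 1.79 (1.59 to 2.02) and 1.86 (1.77 to 1.95), and Iigp1 1.77 (1.60 to 1.96) and 1.73 (1.64 to 1.83). The 2 classes overlapped in their intervals for these genes. Oasl1 did not follow, with 1.01 (0.94 to 1.08) in members and 1.87 (1.72 to 2.04) in others, and Rsad2 had 1.11 (1.03 to 1.20) and 1.47 (1.38 to 1.58). Cxcl9 was at 71.5 and 135 CPM in members, and its ratio of 1.89 (1.64 to 2.19) lay above the 1.35 (1.31 to 1.40) of others.

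**Figure D5:**
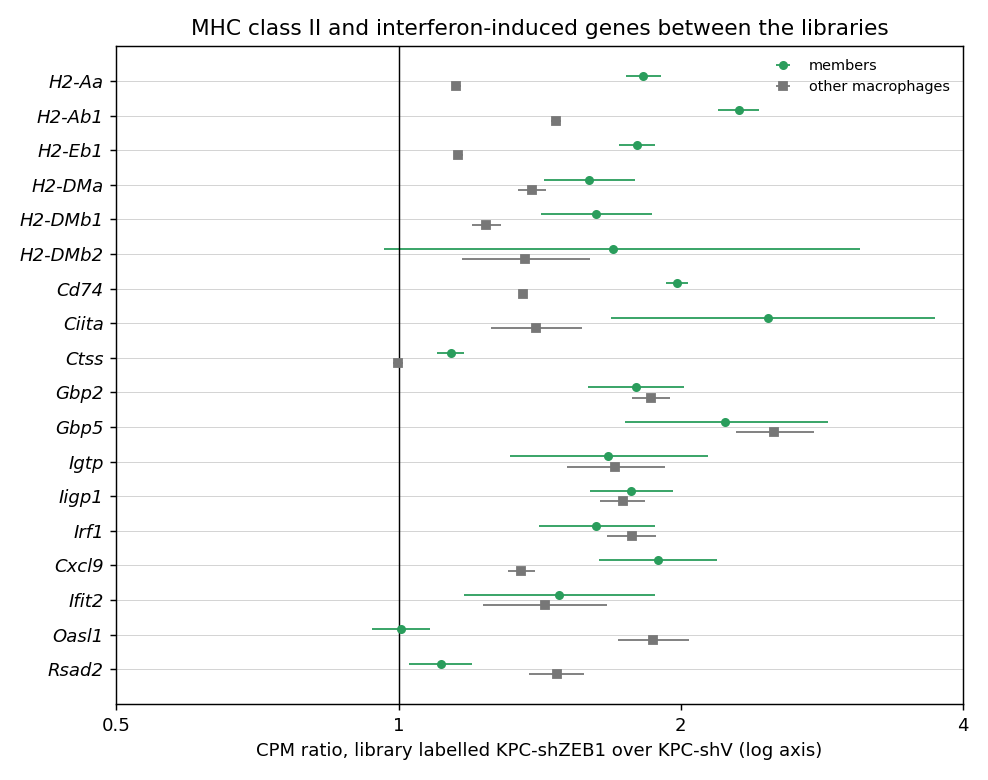
Ratio of CPM in the KPC-shZEB1-labelled library over the KPC-shV-labelled library (x axis, log scale) for MHC class II and interferon-induced genes (y axis) in members (circles) and other macrophages (squares), with exact 95% intervals as bars. H2-Ab1 lies at 2.31 in members and 1.47 in others, and Oasl1 at 1.01 and 1.87.

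Marco and Cd5l were the resident-type genes with the largest decrease. Marco was at 190 and 37.7 CPM in members, a ratio of 0.199 (0.169 to 0.233), from 687 and 206 UMIs in 32 and 33 members. These were 11.6% and 8.29% of members, and 27.4% of the UMIs in the KPC-shV-labelled library came from 1 cell. Cd5l was at 32.3 and 10.3 CPM from 26 and 29 members. Among other macrophages, 3.38% and 2.01% held a UMI of Marco and 0.981% and 0.172% held a UMI of Cd5l, so both were rarer there too in the KPC-shZEB1-labelled library. Hspa1b, a heat shock gene, was at 351 and 156 CPM, and Osm, oncostatin M, at 538 and 268 CPM. In other macrophages Hspa1b was at 160.2 and 88.3 CPM and Osm at 519.7 and 362 CPM.

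Some genes that were lower in members than in other macrophages were less so in the KPC-shZEB1-labelled library. Plet1 was at 7.45 and 39.4 CPM in members, a ratio of 5.28 (3.53 to 8.20), and at 216 and 215 CPM in others. Dcstamp had a ratio of 3.50 (2.77 to 4.46) in members and 1.13 (1.10 to 1.17) in others. Gpnmb, a glycoprotein of lipid-laden macrophages, was at 33.1 and 128 CPM in members and at 125 and 132 CPM in others. These ratios depended on the rule. The log2 ratio of Gpnmb in members was 1.91, and over the alternatives it ran from 0.12, with rule genes at 0.03% of UMIs, to 2.31, without the highest cell of each class and library. Over the alternatives the lowest log2 ratio was 1.09 for Plet1 and 0.80 for Dcstamp. Ccl24 was at 93.9 and 207 CPM in members and at 401 and 326 CPM in others. Apoe, the main lipid carrier of macrophages, was at 11395 and 18045 CPM in members and 10334 and 14897 CPM in others.

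The largest ratios between the libraries belonged to genes of other cells. Ins2, insulin, had no UMI in members of the KPC-shV-labelled library and 1352 in the other, 1272 of them in 1 cell. Iapp, a second islet gene, had 381 of 394 UMIs in 1 cell. Pancreatic acinar genes were spread over many members instead. Try4 was at 3.04 and 47.8 CPM in members, 3.14 and 50.1 CPM in other macrophages and 5.3 and 112 CPM in neutrophils. Pnlip, pancreatic lipase, was at 0.276 and 17.8 CPM in members and at 0.0715 and 18.7 CPM in others. Iglc1, an immunoglobulin light chain gene, had 0 and 102 UMIs, at least 22.6-fold higher against a floor of 3 UMIs over the group. Try4, Pnlip and Iglc1 were at like levels in other macrophages, where Iglc1 was at 0.286 and 16.5 CPM. Ins1, Ctrl and Gzma completed the 8 highest genes, and 73.7% of the Gzma UMIs came from 1 cell.

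Among the 8 lowest genes, Nts, Kif26b and Timp3 rested on single members of the KPC-shV-labelled library, with 97.1%, 69% and 50.5% of their UMIs in 1 cell. Cstdc4, a stefin gene of neutrophils, was at 61.6 and 14.3 CPM in members, 60.3 and 16.3 CPM in others and 1288 and 713 CPM in neutrophils. Cntn5 was at 22.1 and 6.04 CPM in members and 18.7 and 6.08 CPM in others. Hecw2 and Marco were the others, and Ccl21a, whose symbol belongs to 2 gene identifiers, is not described. Zeb1 was at 41.7 and 83.5 CPM in members, a ratio of 2.00 (1.66 to 2.42), and at 57.3 and 85.1 CPM in other macrophages.

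Cell division genes were lower at 3 of 16 and higher at none, with a median of -0.30. Pclaf was at 66.5 and 34.1 CPM and Mki67 at 83.9 and 99.4 CPM, so the list did not move as one. Of 18 scavenger and lectin receptors, 3 were higher and 3 lower. Of 20 chemokines, 4 were higher and 1 lower. Ccl7, Ccl2 and Ccl8 had log2 ratios of -0.04, -0.08 and 0.32, and Ccl22 was at 4.97 and 17.2 CPM.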

How the data were processed

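Single-cell RNA was measured in 2 tumours, 1 per group. The authors deposited UMI counts per gene and barcode from Cell Ranger 7.0.1 on mm10, per the labels, as filtered matrices. Whether intronic reads were counted was not stated, and ambient RNA was not removed here. Counts were used as deposited, of 32285 genes. UMIs were summed per library and class and scaled to CPM (Python 3.11.15, scipy 1.17.1). Shares had Clopper-Pearson, CPM Poisson and ratios conditional exact intervals. The calculation was tested on simulated data. Doublets were scored with Scrublet (scanpy 1.11.5), and those above 0.2 were left in except where stated. Clusters used 2000 variable genes, 20 components, 20 neighbours and Leiden resolution 0.6 (leidenalg 0.10.2), without aligning libraries.

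Members, lists and rules were chosen with earlier results of these data known. The text names list members, the 15 highest and 10 lowest genes shared by both libraries, and the 8 highest and 8 lowest between libraries. Some listed genes are not reported here, Clec7a and Mx1 were not analysed here, and symbols with 2 identifiers, such as Aldoa and Ccl21a, were left out of the lists. T, B and endothelial cells were chosen by marker sums, and for the background of the rule genes also by fewer than 10 C1q UMIs. The 0.5% rule for neutrophils was set after the data were seen. Alternatives covered the rule, filters, doublets, scaling, pseudocount (1 or 5 CPM) and depth.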

Additional observations from a re-analysis of the deposited data

Results flagged for a closer look

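Cells that passed the C1q rule but were left out for at least 10 keratin UMIs also held the rule genes. There were 4 such cells with at least 3 UMIs of Lyve1, Folr2 and Fcna in the KPC-shV-labelled library and 26 in the KPC-shZEB1-labelled library, which was 10.3% of 39 and 21.5% of 121 keratin-bearing C1q cells (exact intervals 2.87 to 24.2 and 14.5 to 29.9). They stood out because they lie outside every comparison above. Their shares of the keratin-bearing C1q cells overlapped in their intervals. Of all kept cells they were 0.0342% (0.0093 to 0.0874) in the KPC-shV-labelled library and 0.209% (0.136 to 0.306) in the KPC-shZEB1-labelled library. By that share they were more frequent in the KPC-shZEB1-labelled library. Their median depth was 19229 and 35672 UMIs against 12027 and 12327 in members, and 0 and 8 of them had a doublet score above 0.2. F13a1 was at 1451 and 961 CPM in them and Krt8 with Krt18 at 2027 and 881 CPM, against 203 and 255 CPM in members. The median of their keratin UMIs was 10 and 12, at or near the cut of 10.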

How the results depend on the processing

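No paired analysis was possible because the labels give 1 library per group and no replicate numbers, and no replicate could be left out. The ratio of the subset's share of macrophages stayed below 1 under every alternative run, from 0.648 with C1q at 5 UMIs and 0.1% to 0.837. The ratio of macrophages among kept cells moved to 2.08 with that C1q rule and 2.07 with 30 UMIs and 0.5%, where the subset's ratio among kept cells moved to 1.69. Left without neutrophils, an alternative added after seeing the data, that ratio was 0.992. The 238 genes lower in members became 120 with 2 rule UMIs, 367 with rule genes at 0.03% of UMIs, 405 in cells thinned to 4000 UMIs and 140 with a pseudocount of 5 CPM. Between libraries, the 175 higher genes became 101 with that pseudocount and 545 with no minimum, and the 38 lower genes became 20 and 178, and 23 with the stricter C1q rule. Of the genes named, some log2 ratios changed sign. Between libraries in members, Spp1 was at -0.016 with 5 rule UMIs, -0.55 with rule genes at 0.03%, -0.27 in thinned cells, -0.066 without Lyve1 in the rule, -0.040 without Folr2 and -0.015 without each gene's highest cell, a setting added after seeing the data. Adamdec1 was at -0.20 with 5 rule UMIs and -0.42 at 0.03%, where Fabp5 was at -0.30 and Mmp12 at -0.086. Ccr2 was at 0.15 in thinned cells and 0.17 without Folr2, Hecw2 was at 1.87 in thinned cells, and Nts at 0.83 without Lyve1, 1.04 with the stricter C1q rule, 0.76 without mixed cells and 0.16 without the highest cell. For members over others in the KPC-shV-labelled library, Kif26b was at -0.51 with 0.03%, -0.54 thinned and -0.41 without Folr2, and Timp3 at -0.11, -0.17 and -0.070. Thinned, Adm was at -0.96 and Hecw2 at -1.88, and Adm was at -0.17 without the highest cell. Nts was at -2.10 without Lyve1, -0.60 with the stricter C1q rule, -0.39 without mixed cells and -0.36 without the highest cell. In the KPC-shZEB1-labelled library Iapp was at -0.027 with the stricter C1q rule and Cxcl13 at -0.061 as a mean over cells. The causes were not tested.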

Other observations

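Genes of iron and lipid handling were mostly under 1.5-fold between members and other macrophages, beside 6.06% of all genes higher and 5.55% lower. Of 12 iron genes, 3 were at least 1.5-fold higher in both libraries and 1 lower. Hmox1, heme oxygenase, was at 448 against 167 CPM in the KPC-shV-labelled library and at 316 against 120 CPM in the other. Of 17 lipid genes, 2 were higher and 2 lower, with medians of 0.08 and 0.04, so the list lay close to all genes. Pltp, the phospholipid transfer protein, was at 248 against 70.7 CPM and at 391 against 87.3 CPM. Of 11 cathepsins, 2 were higher and none lower.

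Of 16 monocyte genes, 2 were higher and 3 lower, with medians of -0.40 and -0.42. Ccr2, the receptor for Ccl2, was at 109 against 160 CPM and at 68.7 against 124 CPM. Of 9 genes of large peritoneal macrophages, 2 were higher and 1 lower, and none of 16 cell division genes passed 1.5-fold in both libraries. These values are descriptions of the same chosen cells and were not tested.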
